A study of Caenorhabditis elegans with 16 samples.

Results

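bath-45 (WBGene00009247, also F29C12.5) is a protein-coding gene on the plus strand of chromosome II of Caenorhabditis elegans, at II:13123020–13125189 in the WBcel235 annotation. It was followed here as 3 of the 100257 bins of 1000 bases in the deposited small RNA table, those that start at II:13123001, II:13124001 and II:13125001. These bins were chosen by position alone, and 20 bins on each side served as flanks. All 3 locus bins and 16 of the 40 flank bins passed a filter on low values, a mean of at least 5 RPKM (reads per 1000 bases and per 1000000 reads) over the 16 libraries.

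bath genes code for proteins with a BTB and a MATH domain, and some members of this family bring substrates to cullin-based ubiquitin ligases. In the germline of C. elegans, RNA-dependent RNA polymerases copy target transcripts into antisense secondary siRNAs. The nuclear Argonaute HRDE-1 binds such siRNAs, and with the NRDE factors it represses transcription and marks chromatin at the targets, a state that can be inherited over generations. SET-32 is a SET-domain protein linked to this nuclear RNAi pathway, and MET-2 and SET-25 are histone H3 methyltransferases.

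The animals were young adult hermaphrodites in 4 backgrounds: wild type (N2), set-32(ok1457), set-32(red11) and met-2(n4256) set-25(n5021). Within a background, hrde-1 was in 1 of 3 conditions: intact throughout (never mutant), mutant through the tm1200 allele, or repaired after having been mutant, written hrde-1(+R) in the labels. Repaired animals were sampled early, at F5 after the repair or at F8 in set-32(ok1457), and again at F20. Each of the 16 combinations had 1 library and no replicate, so backgrounds stand in as replicates of a state and states as replicates of a background. The p-values therefore measure the spread between backgrounds or states, not between cultures. Whether a repaired line came from 1 or more founders is not given in the sources used here. Small RNA came from whole animals and was cloned without requiring a 5′ monophosphate, which admits secondary siRNAs, and in such material fewer germ cells and less small RNA per germ cell cannot be told apart. Strand and read length were not separated within a bin.

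The libraries differed in ways that the genotypes do not describe. The bins of a library summed to between 67.7 and 96.7% of 1000000 RPKM, and 5 libraries stood apart at 89.98 to 96.7%: never mutant and hrde-1 mutant set-32(ok1457), never mutant and hrde-1 mutant set-32(red11), and the early repaired met-2 set-25 library. The other 11 lay at 67.7 to 80.5%. Summed small RNA over 8 intestine genes was 138 to 616 RPKM in the 5 libraries and 4414 to 12429 RPKM in the 11. Over 7 oocyte and germline genes it was 999 to 1687 and 922 to 1731 RPKM. Both libraries of a background therefore lay in 1 class when mutant was set against never mutant, but all 4 repaired set-32 libraries, and the early met-2 set-25 library in the other direction, lay across the split from their mutants. By name prefix, N2 was labelled SG1116, hrde-1(tm1200) and the never mutant and mutant met-2 set-25 libraries SG0315, and the other 12 SG0717. From the spacing of low values a read was worth about 1.45 to 6.31 RPKM, which puts about 142703 to 499495 reads in the bins of a library.

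Small RNAs at bath-45 lay over the transcribed gene up to its 3′ UTR, and few lay over its surroundings. The first bin, II:13123001–13124000, holds exons 1 to 4, with 18 bases of 5′ UTR and 792 coding bases, and averaged 652 RPKM over the 16 libraries, with values from 371 to 1009. The second bin, II:13124001–13125000, holds exons 5 to 7 and most of exon 8, with 612 coding bases and 211 bases of 3′ UTR, and averaged 455 RPKM (305 to 706). The third bin, II:13125001–13126000, holds only the last 189 bases of the 3′ UTR and averaged 7.03 RPKM (1.60 to 16.2). In 11 of the 16 libraries the third bin lay below the value of 3 reads, and its values are therefore close to the limit of detection. The bin just before the gene, II:13122001–13123000, which takes in the last 16 bases of gfm-1 (a mitochondrial elongation factor gene), averaged 36.0 RPKM, and the first bath-45 bin stood 18.1-fold above it.

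Only 1 other stretch within the flanks carried comparable small RNA. The 4 bins from II:13131001 to II:13135000, which hold the pseudogene F32A11.5 (II:13131009–13134212, plus strand), averaged 234, 509, 131 and 262 RPKM. The 5 bins between bath-45 and F32A11.5 averaged between 0.212 and 10.9 RPKM. Upstream, over gfm-1, rict-1 (the Rictor homologue of the TOR pathway) and pqn-32, the 20 bins averaged between 0.298 and 36.0 RPKM. No piRNA gene is annotated in the 43 bins. The authors marked the first and second bath-45 bins, but neither the third nor any flank bin, in a column headed GRH, which marks 215 bins or 0.214% of the table. What that heading stands for is not given in the sources used here.

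**Figure D1:**
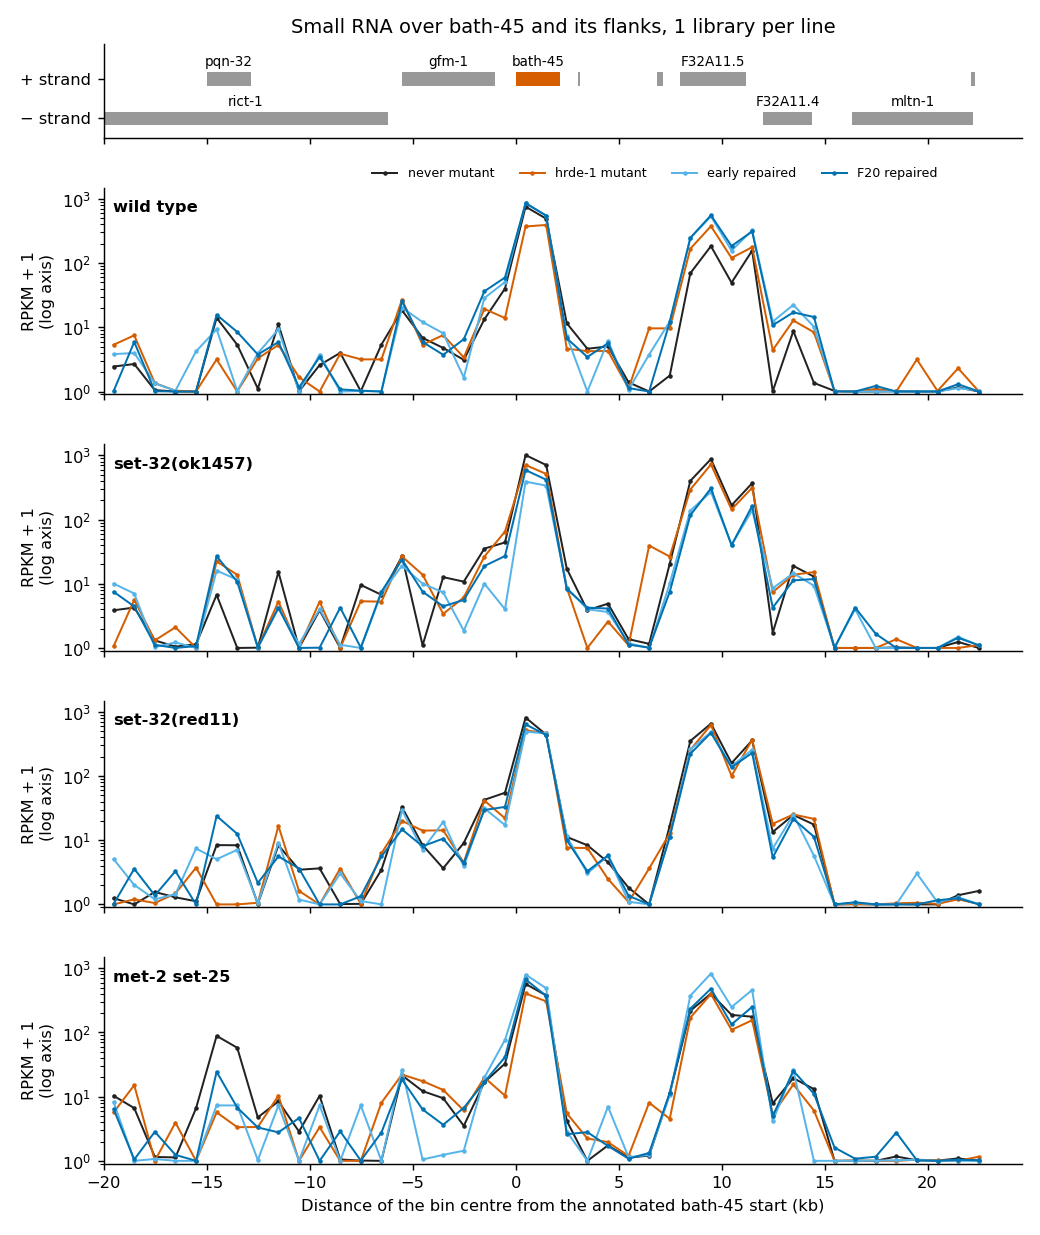
Small RNA across the bath-45 locus in each library, by background. The top panel gives the annotated genes and each of the 4 profiles gives RPKM + 1 per bin on a log axis against distance from the annotated gene start, 1 line per hrde-1 state. In every library the first and second bath-45 bins stand between 305 and 1009 RPKM. The F32A11.5 bins form the only other stretch of comparable mean level. Never mutant met-2 set-25 also has a lower peak over pqn-32, at 87.5 RPKM (bin from II:13108001) and 56.8 RPKM (bin from II:13109001).

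bath-45 was among the bins richest in small RNA. Its first bin ranked between 12 and 28 of 100257 in the 4 never mutant libraries, between 71 and 106 in the 4 hrde-1 mutants, between 12 and 86 in early repaired libraries and between 13 and 37 at F20. The 3 bins together took 0.118 to 0.181% of a never mutant library, 0.094 to 0.133% of a mutant library and 0.108 to 0.189% of a repaired library. At about 126 to 521 reads in the first bin and 77.2 to 339 in the second, counting error alone was 4.38 to 8.90% and 5.43 to 11.38% of the value.

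In the first bin, the wild-type background stood at 756 RPKM in N2, 371 in hrde-1(tm1200), 871 at F5 and 853 at F20. The set-32(ok1457) background stood at 1009 RPKM when never mutant, 707 when mutant, 389 at F8 and 589 at F20. In set-32(red11) the values were 813.5, 513, 490.4 and 637 RPKM in the same order, with the early sample at F5. Each mutant library was thus below its never mutant counterpart, but only the wild-type background stood above its never mutant level at both times after repair among these 3. In met-2 set-25 the first bin stood at 569 RPKM when never mutant, 403 when mutant, 797 at F5 and 669 at F20, with both repaired libraries above the never mutant one. The mutant value over the never mutant value was 0.491 in wild type, 0.701 in set-32(ok1457), 0.630 in set-32(red11) and 0.709 in met-2 set-25.

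The second bin varied less. It stood at 492, 392, 544 and 549 RPKM in wild type, in the order never mutant, mutant, early repaired and F20 repaired. In set-32(ok1457) it stood at 706, 514, 337 and 417 RPKM, and in met-2 set-25 at 377, 305, 487 and 369.6 RPKM. In set-32(red11) it was nearly level, at 440.1, 465, 459 and 434 RPKM, and the mutant was 1.06 times the never mutant. In the other 3 backgrounds the mutant was 0.727 to 0.809 times the never mutant.

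The third bin, the end of the 3′ UTR, stood at 10.6, 3.65, 6.23 and 5.74 RPKM in wild type and at 16.2, 7.65, 7.70 and 7.29 RPKM in set-32(ok1457), in the same order of states. In set-32(red11) it stood at 10.3, 6.64, 10.46 and 8.98 RPKM, and in met-2 set-25 at 3.21, 4.51, 1.86 and 1.60 RPKM. It reached the value of 3 reads in 3 of 4 never mutant libraries and in 0 of 4 mutants.

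**Figure D2:**
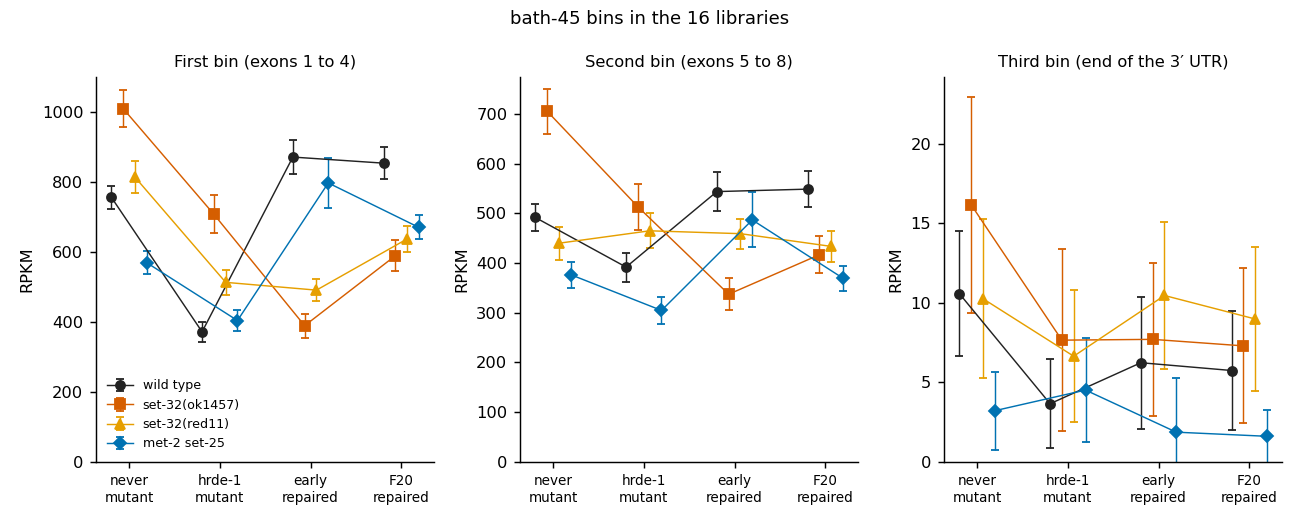
RPKM of each bath-45 bin in the 16 libraries, by hrde-1 state, 1 marker and line per background, with vertical axes that start at 0. Bars are approximate counting errors of a single library (the value divided by the square root of its reads), not spread between replicates. In the first bin every mutant lies below its own never mutant library. As deposited, repaired set-32 libraries stand at 389 to 637 RPKM and repaired wild-type and met-2 set-25 libraries at 669 to 871 RPKM. How many other bins separate in this way was not counted. These ranges are of the first bin alone. The means over the 3 bins overlap between these groups already as deposited, at 245 to 360 and 347 to 474 RPKM. After rescaling to 1 table sum they overlap too, at 291 to 399 and 357 to 508 RPKM.

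Averaged over the 3 bins, bath-45 stood at 434 ± 108 RPKM (SD, n = 4 backgrounds) in never mutant libraries, 378 ± 61.3 at F20, 367 ± 104 early after repair and 308 ± 78.3 in hrde-1 mutants. No pair of neighbours in this order differed by more than their SD. By background, the order was wild type at 405 ± 102 RPKM (SD, n = 4 states), set-32(ok1457) at 392 ± 141, set-32(red11) at 357 ± 46.0 and met-2 set-25 at 332 ± 79.0, and again neighbours differed by less than their SD. The lowest of all 16 locus means was 238 RPKM in mutant met-2 set-25 and the highest 577 RPKM in never mutant set-32(ok1457).

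Loss of HRDE-1 was the first comparison the design implies. The locus mean was lower in the mutant in 4 of 4 backgrounds, by a log2 difference of −0.71 in wild type, −0.49 in set-32(ok1457), −0.36 in set-32(red11) and −0.41 in met-2 set-25. The mean log2 difference was −0.49 ± 0.16 (SD, n = 4), with an exact sign-flip permutation p = 0.125 (two-sided), the smallest that 4 differences allow, or 0.5 adjusted over the 8 comparisons of the locus mean. In mutant against never mutant, only the wild-type pair crossed library-name prefixes. Without that pair the mean log2 difference was −0.42 ± 0.07 (SD, n = 3). Between single bins, over all 4 backgrounds, the difference was unequal: −0.67 ± 0.18 (SE) in the first bin, −0.25 ± 0.19 in the second and −0.62 ± 0.52 in the third. With limma across all 25407 tested bins the adjusted p-values were 0.162, 0.707 and 0.746, so 0 of 3 bins passed, where 1.14% of tested bins did. Before adjustment over all bins, the limma p of the first bin was 0.00508 (adjusted p = 0.162). Over the 10 comparisons, the first bin here and in the set-32 by repair interaction were the only locus bins with an unadjusted limma p under 0.05.

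The states after repair did not give 1 direction over the backgrounds. From mutant to early repaired, the locus mean had a mean log2 difference of 0.24 ± 0.78 (SD, n = 4; exact sign-flip permutation p = 0.5, two-sided), with 2 of 4 backgrounds higher. From mutant to F20 the difference was 0.32 ± 0.50 (exact permutation p = 0.375), with 3 of 4 higher. limma called 0 of 3 bins in either comparison, against 0.0433% and 0.134% of tested bins, and the first bin stood at 0.32 ± 0.46 (SE, adjusted p = 0.866) and 0.49 ± 0.31 (adjusted p = 0.57). Averaged over both times, repaired minus mutant was 0.88 in wild type and 0.70 in met-2 set-25, but 0.05 in set-32(red11) and −0.51 in set-32(ok1457).

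Set against never mutant libraries, the repaired libraries likewise spread on both sides of 0. The locus mean differed by −0.25 ± 0.74 early (SD, n = 4; exact sign-flip permutation p = 0.75, two-sided) and by −0.18 ± 0.43 at F20 (exact permutation p = 0.625), with 2 of 4 backgrounds higher at each time. Averaged over both times, repaired minus never mutant was 0.17 in wild type and 0.29 in met-2 set-25, against −0.31 in set-32(red11) and −1.003 in set-32(ok1457). For both set-32 alleles this contrast crosses the table-total split, from a high total when never mutant to a low one after repair. The early met-2 set-25 library crosses it the other way. With libraries rescaled to the same table sum, the set-32(red11) value was 0.05 and the set-32(ok1457) value −0.51. Wild type then stood at 0.12 and met-2 set-25 at 0.23. As deposited, F20 and early repaired libraries differed by 0.08 ± 0.32 (exact permutation p = 0.75). limma called 0 of 3 locus bins in these 3 comparisons, and 0% of all tested bins in each. At an unadjusted p under 0.05 limma had 205 bins higher and 702 lower early, 271 and 807 at F20, and 435 and 528 for F20 against early. Mutant, repaired and never mutant comparisons share libraries, so their values are given side by side and are not independent of each other.

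Backgrounds were then compared with the wild type, with states as blocks. The set-32 alleles differed from wild type by −0.11 ± 0.59 in locus mean (SD, n = 4 states; exact permutation p = 0.642, two-sided, background labels permuted within state), being higher by 0.23 in never mutant and 0.52 in mutant animals, and lower by −0.76 early and −0.43 at F20. In never mutant and mutant animals the set-32 libraries had a high table total and the wild-type libraries a low one. Their library-name prefixes differed there too. After repair they shared both table-total class and prefix. With libraries rescaled to the same table sum, the locus mean differed by −0.25 ± 0.38 (SD), with 1 of 4 states higher. The part of class and prefix in the change of sign between states was not tested further. As deposited, limma called 0 of 3 bins and 0% of all tested bins. At an unadjusted limma p under 0.05, 2230 bins were higher and 754 lower. The third bin stood at 0.49 ± 0.36 (SE, adjusted p = 0.625) close to its detection limit. met-2 set-25 was lower than wild type at 4 of 4 states, by −0.27 ± 0.17 in locus mean (SD, n = 4; exact sign-flip permutation p = 0.125, two-sided, the smallest possible; adjusted 0.5). In that comparison 0 of 3 bins passed, against 0.287% of tested bins, with −0.19 ± 0.22 (SE, adjusted p = 0.764) in the first bin and −0.37 ± 0.21 (adjusted p = 0.523) in the second.

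Whether the response differed between set-32 and SET-32-positive backgrounds was tested as an interaction over all 16 libraries. For hrde-1 loss the interaction was 0.17 ± 0.37 (SE) in the first bin and 0.13 ± 0.40 in the second (limma adjusted p = 0.972 and 0.983), with 0 of 3 bins called and 0% of tested bins (645 bins higher and 940 bins lower at p under 0.05 before adjustment). For repair, the mean of both times against the mutant, it was −1.25 ± 0.32 in the first bin (unadjusted p = 0.00187, adjusted p = 0.0738 with limma) and −0.73 ± 0.35 in the second (adjusted p = 0.332). Here too 0 of 3 bins passed, where 1.72% of tested bins did. The third bin, near its detection limit, stood at 0.44 ± 0.88 (adjusted p = 0.856).

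The repaired set-32 libraries also lay across the table-total split from their mutants, and the interaction moved with the scaling. Over all tested bins its median was −0.28 as deposited and 0.12 after each library was rescaled to 1 table sum, with calls of 282 higher and 156 lower bins as deposited and 360 and 66 after rescaling. The first bin then stood at −0.80 ± 0.29 (SE, limma adjusted p = 0.232). With a term for the table-total class in the model the first bin stood at −1.15 ± 0.61 (adjusted p = 0.483). After rescaling, repaired minus mutant in locus mean was 0.89 in wild type, 0.39 in set-32(red11), −0.07 in set-32(ok1457) and 0.56 in met-2 set-25. The part of the table-total class in the interaction was not tested beyond these values. From mutant to repaired, the library-name prefix changed from SG0315 to SG0717 in wild type and met-2 set-25. It stayed SG0717 in both set-32 alleles. In this interaction, at locus and flank bins alike, the prefix and set-32 therefore cannot be told apart.

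**Figure D3:**
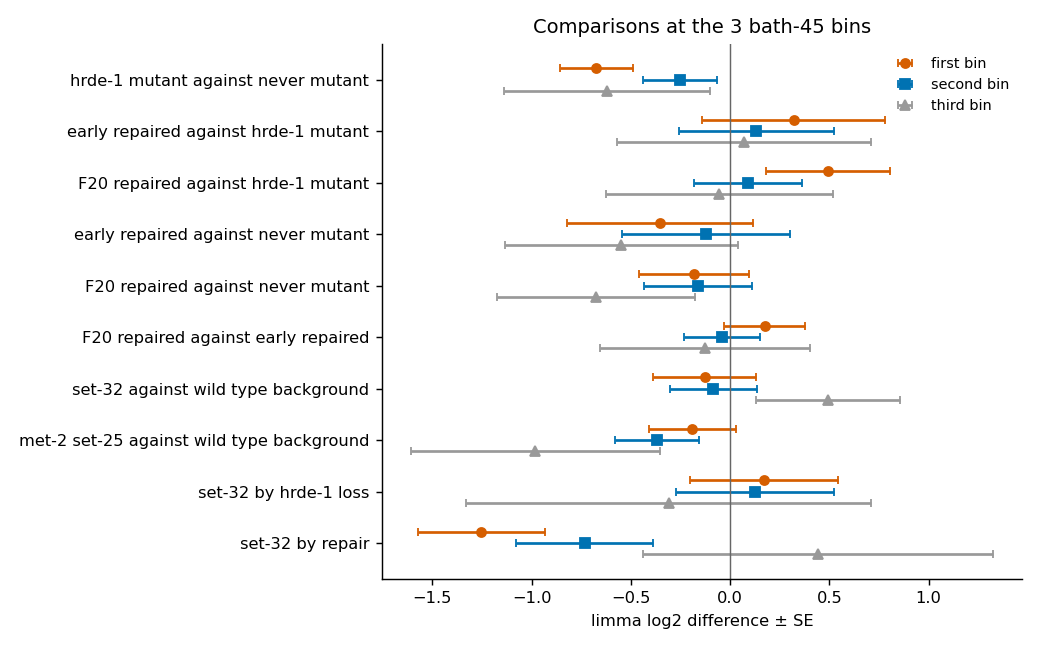
limma log2 differences at the 3 bath-45 bins for the 10 comparisons, with bars of 1 SE. The first bin has the values farthest from 0 relative to their SE in hrde-1 mutant against never mutant (−0.67) and in the set-32 by repair interaction (−1.25), and no value passed an adjusted p of 0.05.

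The balance between the first and the second bin is a measure within a library, free of the scaling between libraries. It was examined after its values had been seen. The first bin was the higher one in 15 of 16 libraries, and the exception was the hrde-1(tm1200) library in the wild-type background, with a ratio of 0.947. In wild type the ratio was 1.54 in N2, 1.60 at F5 and 1.55 at F20. In set-32(ok1457) it was 1.43 when never mutant, 1.38 when mutant, 1.15 at F8 and 1.41 at F20. In set-32(red11) it was 1.85, 1.102, 1.07 and 1.47, and in met-2 set-25 1.51, 1.32, 1.64 and 1.81, in the same order of states.

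The ratio was lower in the mutant in 4 of 4 backgrounds, by log2 differences of −0.70 in wild type, −0.75 in set-32(red11), −0.19 in met-2 set-25 and −0.05 in set-32(ok1457). Counting error alone gives a single log2 ratio an approximate standard error of 0.10 to 0.21, so the last pair of differences is no larger than counting error. The mean difference was −0.42 ± 0.35 (SD, n = 4; exact sign-flip permutation p = 0.125, two-sided, the smallest possible). Early after repair the ratio stood above the mutant in 2 of 4 backgrounds, by 0.19 ± 0.44 (SD, n = 4; exact permutation p = 0.5). At F20 the ratio stood above the mutant in 4 of 4 backgrounds, by 0.40 ± 0.28 (exact permutation p = 0.125). The first bin took 48.4 to 57.6% of the summed locus signal in mutants and 58.3 to 64.4% in never mutant libraries. In repaired libraries it took 51.1 to 64.3%. The nearest values of mutant and never mutant, 57.6 and 58.3%, were both from set-32(ok1457). How many other pairs of bins separate as far was not counted.

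**Figure D4:**
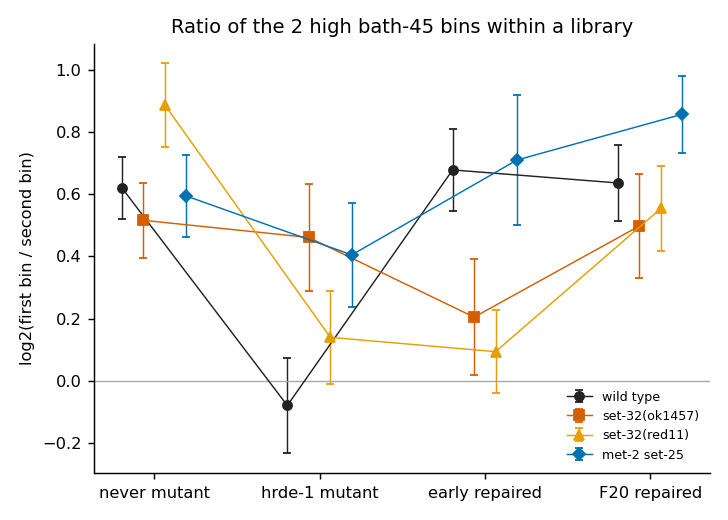
log2 ratio of the first to the second bath-45 bin in each library, by hrde-1 state, with 1 line per background and approximate counting standard errors as bars. The mutant lies below the never mutant in 4 of 4 backgrounds, from −0.75 in set-32(red11) to −0.05 in set-32(ok1457), and the wild-type mutant is the only library below 0.

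Among the flanks, 2 bins were called, both only in the set-32 by repair interaction, where 1.72% of tested bins were. One was the bin before the gene, II:13122001–13123000, at −3.47 ± 0.81 (SE, limma adjusted p = 0.0498). It stood at 39.2, 12.95, 49.7 and 58.6 RPKM in wild type (never mutant, mutant, early, F20) and at 31.65, 9.38, 75.6 and 40.4 RPKM in met-2 set-25. It stood in set-32(ok1457) at 43, 63.9, 3.01 and 26.0 RPKM, and in set-32(red11) at 53.8, 20.9, 16.2 and 32.02 RPKM. The early set-32(ok1457) value of 3.01 RPKM lay under the value of 3 reads, 9.05 RPKM in that library. In mutant met-2 set-25 and mutant wild type, 3 reads were worth 7.04 and 6.48 RPKM, so those values also rest on few reads. Both repaired libraries were thus above the mutant in wild type and met-2 set-25 and below it in set-32(ok1457). The call held in 1 of 9 alternatives, and the interaction was −2.09 (adjusted p = 0.498) without set-32(ok1457) and −2.20 (adjusted p = 0.607) with a term for the table-total class.

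The other called flank bin was the last of F32A11.5, II:13134001–13135000, which holds the last 212 bases of the pseudogene, at −1.81 ± 0.37 (SE, limma adjusted p = 0.0282). It stood at 156, 176, 323 and 309.9 RPKM in wild type and at 367, 312, 138 and 162 RPKM in set-32(ok1457), in the order never mutant, mutant, early and F20. In set-32(red11) it stood at 358, 365, 256 and 229 RPKM and in met-2 set-25 at 175, 154, 458 and 249 RPKM. Repaired libraries were above the mutant in wild type and met-2 set-25 and below it in both set-32 alleles. This call also held in 1 of 9 alternatives and stood at −1.03 (adjusted p = 0.572) with a term for the table-total class.

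Over its 4 bins F32A11.5 averaged 284 RPKM and did not follow bath-45 through hrde-1 loss in wild type. Its mean was 114 RPKM in N2, the lowest of the 16, and 209 in hrde-1(tm1200), while bath-45 stood at 419.5 and 256 RPKM (mean of its 3 bins). In the other 3 backgrounds F32A11.5 was lower in the mutant by −0.30 to −0.18 on the log2 scale. Its mean difference was 0.04 ± 0.56 (SD, n = 4; exact sign-flip permutation p = 1, two-sided). N2 was the only library with the prefix SG1116, and for N2 the prefix and the genotype cannot be told apart.

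Of the 7 genes listed as nuclear RNAi targets, bath-45 had the highest mean level over the 16 libraries, at 372 RPKM per bin (238 to 577). F15D4.5 followed at 350.1 (118 to 853) and C38D9.2 at 106 (43.9 to 255). In never mutant libraries alone F15D4.5 was higher than bath-45, at 570 against 434 RPKM per bin. On hrde-1 loss, the mean log2 difference over 4 backgrounds was −2.03 in F07B7.1, −1.29 in C38D9.2, −1.27 in F15D4.5 and −1.20 in F07B7.2. Beside the −0.49 of bath-45, W05H12.2 had −0.33 and R03D7.2 0.20. F07B7.1 and F07B7.2 lie side by side and share a bin. With limma 7 of the 21 tested bins of the list were lower in the mutant and 0 higher, where 181 of all 25407 tested bins were lower and 108 higher (1.14% called). The median was −0.60 against 0.05 over all tested bins. Those 7 bins lie in F15D4.5, C38D9.2, F07B7.1, F07B7.2 and R03D7.2. In the set-32 by repair interaction 5 bins of the list were lower and 1 higher, 0 of them in bath-45, where 156 of all tested bins were lower and 282 higher (1.72% called). The median of the list was −1.25 against −0.28. The list was drawn up with earlier results of these data known, so its counts are no independent evidence of a direction.

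Small RNAs over genes of the pathway itself were examined for 26 of the 27 listed factors found by name, among them the Argonaute genes hrde-1, csr-1, wago-1 and prg-1, the polymerase genes rrf-1, ego-1 and rrf-3, and nrde-1 to nrde-4. Of their 128 tested bins, 0 were called in hrde-1 mutant against never mutant and 0 in either interaction, where 1.14% of all tested bins (hrde-1 loss), 0% (set-32 by loss) and 1.72% (set-32 by repair) were. A count of 0 of 128 is close to those shares. A single bin was called in any of the 10 comparisons, over met-2 in met-2 set-25 against wild type at −3.49 ± 0.54 (SE, limma adjusted p = 0.0474), in the gene that is mutated there. hrde-1 itself averaged 105 RPKM per bin in never mutant and 61.7 in mutant libraries, and set-32 18.5 and 21.4, levels well under those of bath-45. hrde-1 was lower in the mutant in 4 of 4 backgrounds, by −0.72 ± 0.29 on the log2 scale (SD, n = 4), without a called bin. Small RNA over a mutated gene is no check of its label.

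bath-45 stood at the top of its gene family. Of the 36 genes named bath in the annotation, 26 lie on chromosome II. Per bin bath-45 averaged 372 RPKM, bath-20 289, bath-23 170.3, bath-24 105 and bath-13 87.8, and the 35 others had a median of 21.3 RPKM, with 5 of them below 1. Bins are shared with neighbouring sequence, which can lower or raise the mean of short genes. GRH marked bins of 2 bath genes, bath-45 and bath-29.

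Differences on hrde-1 loss spread on both sides of 0 within the family. Of the 27 other bath genes with a mean of at least 5 RPKM per bin, 10 were lower in 4 of 4 backgrounds and 2 in none, with a median log2 difference of −0.25 (range −1.96 to 0.76). Measured in the same way over the 8052 protein-coding genes at that level, 7.43% were lower in 4 of 4 backgrounds (598 genes) and 986 genes in none, with a median of 0.08. The list was drawn up with results known, and nothing particular to the family is read from these counts. bath-20 had a difference of −0.52 ± 0.17 (SD, n = 4), bath-24 −1.07 ± 0.32 and bath-35 −1.96 ± 0.82. bath-23 had 0.36 ± 0.43. With limma 1 of 86 tested bins of the family passed in this comparison, a bin of bath-13 (II:2521001–2522000, −1.03 ± 0.20 SE, adjusted p = 0.0491), and the median over the 86 was −0.29 against 0.05 over all tested bins. That 1 of 86 bins is close to the 1.14% of all tested bins called in that comparison.

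**Figure D5:**
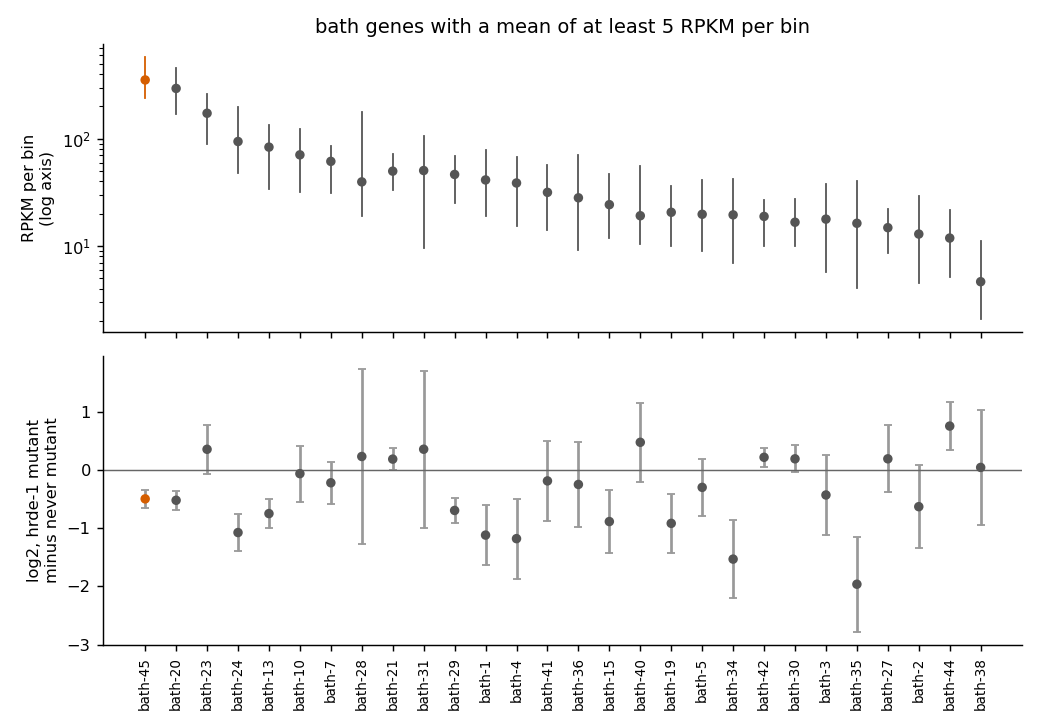
Small RNA over the 28 bath genes with a mean of at least 5 RPKM per bin. Upper panel: median over 16 libraries with a line from the lowest to the highest, on a log axis; lower panel: mean log2 difference of hrde-1 mutant from never mutant over 4 backgrounds, with the SD as bars. bath-45 (orange) is the highest and its difference of −0.49 lies within the range of the others.

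Across the 16 libraries, the bins outside the window whose level most resembled the bath-45 locus mean lay on 4 other chromosomes. They held flor-1 and T01G5.8 (V:15116001–15117000, Pearson r = 0.915 on the log2 scale), K11D2.1, T27F6.7 and T27F6.8 (I:12497001–12498000, 0.912), Y49E10.4 and Y49E10.5 (III:12382001–12383000, 0.911), C32H11.7 (IV:12931001–12932000, 0.91) and asah-1 (I:12507001–12508000, 0.909). Their mean levels were 21.8 to 54.9 RPKM, and none was marked GRH. The asah-1 bin had the lowest mean, with a median of 4.93 RPKM and a range of 0.0 to 140 RPKM. After centring on library medians its r was 0.801, against 0.889 to 0.931 in the others. Of 25388 bins compared, 140 had r above 0.8 and the median r was 0.005. Within the window r was 0.84 for the bin before the gene and 0.42 to 0.70 for the F32A11.5 bins. These correlations describe 16 libraries that share depth and scaling, and no p-value is given.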

How the data were processed

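Small RNA of whole animals was measured in 16 libraries (1 per genotype), grouped by sample title. The authors deposited 1 table of RPKM per 1000-base bin. The submitters' processing notes name Bowtie 0.12.7. For the genome build, the reads behind the scaling and the treatment of multiply mapping reads, details were not given in the sources used here. Columns were matched to samples by the library name in the labels, and 27 library columns that matched no sample were not used. The table's yes/no columns GRH, GRTS and misanotated were taken as deposited.

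Bins were named from the WBcel235 annotation. The high bins began with the bins that hold the annotated starts of bath-45 and F32A11.5. At F32A11.5 they ended with the bin that holds its annotated end. At bath-45 they ended at II:13125000, before the last 189 bases of the 3′ UTR. Only 50.5 to 78.0% of low values were whole multiples (within 0.05 of a read) of a library's smallest step, so reads and counting errors are approximate and no count test was run. A floor of 3 reads was worth 4.36 to 18.9 RPKM.

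limma 3.58.1 (lmFit, eBayes with trend; R 4.3.3) was fitted to log2(RPKM + 1) over the 25407 bins that averaged 5 RPKM or more, with background (states compared) or state (backgrounds compared) as a block, and with background, state and set-32 by state terms for the interactions. Two-sided p-values were Benjamini-Hochberg adjusted over all 25407 bins, with a threshold of 0.05. This pseudocount understates fold changes of low bins. The locus mean was tested by exact permutation, adjusted over 8 comparisons. The fit was tested on simulated data. Alternatives were a pseudocount of 0.25, no filter, centring on library medians, rescaling to 1 table sum, leaving out each background or state, and pairs of 1 library-name prefix. The table-total class as a term, leaving out backgrounds with a library of high total in a compared state, and ratios within a library were added after seeing the data. Genes named are those of the locus and flank bins, of 3 lists (nuclear RNAi targets, pathway factors, bath genes) and the 5 bins most like the locus mean. The members and lists were chosen with earlier results of these data known.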

Additional observations from a re-analysis of the deposited data

Results flagged for a closer look

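In groups of 4 libraries, 56 sets of values were checked for 1 library far from the other 3, and 5 had one, where chance alone gives about 1 in 20. The ratio of bath-45 to F32A11.5 was 3.68 in N2, against 1.11 to 1.29 in the other never mutant libraries and 1.22 to 1.51 in the other wild-type states, so N2 stood apart in both groups. The bath-45 mean was 469 RPKM in wild type at F20, against 338 to 360 (359.9 at most) RPKM in the other F20 libraries. The first bin over the second was 0.947 in hrde-1(tm1200), against 1.54 to 1.60 in the other wild-type states. The third bin stood at 16.2 RPKM in never mutant set-32(ok1457), against 7.29 to 7.70 RPKM in the other states of that background, all close to the value of 3 reads.

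The change from hrde-1 mutant to repaired differed between set-32 and SET-32-positive backgrounds at 2 flank bins, by −3.47 on the log2 scale at II:13122001–13123000 and by −1.81 at II:13134001–13135000 (limma adjusted p = 0.0498 and 0.0282). Repaired set-32 libraries had a table total of another class than their mutants, whose part in these differences was not tested beyond the fits with that class as a term. The library-name prefix changed from mutant to repaired only in the SET-32-positive backgrounds, so prefix and set-32 cannot be told apart at these bins. At II:13122001–13123000 the early repaired set-32(ok1457) library stood at 3.01 RPKM, under its value of 3 reads (9.05 RPKM).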

How the results depend on the processing

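No bath-45 bin was called under any of the alternatives run in any of the 10 comparisons. The first bin ranged from −0.76 to −0.56 for mutant against never mutant (adjusted p 0.152 to 0.737) and from −1.60 to −0.80 for the set-32 by repair interaction (0.0738 to 0.666). Counts of calls over all tested bins moved much more. Mutant against never mutant gave 289, but 115 with the smaller pseudocount, 0 without a filter, 137, 0 and 42 without set-32(ok1457), set-32(red11) and met-2 set-25, and 83 without the libraries of high table total. The set-32 by repair interaction gave 438, but 185 without a filter, 38 to 208 without 1 background and 0 with a term for the table-total class. Early repaired and F20 against mutant gave 11 and 34, with ranges of 0 to 124 and 0 to 476, and both against never mutant gave 0, but 652 and 410 with pairs of 1 prefix. met-2 set-25 against wild type gave 73 (0 to 136), set-32 against wild type 0 (up to 104) and the set-32 by loss interaction 0 (up to 226). That class could not be fitted as a term for mutant against never mutant, where it does not vary within a background.

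Mean log2 differences of the bath-45 locus that turned sign were those after repair and between backgrounds, none of them past a threshold. With pairs of 1 library-name prefix only (both set-32 alleles), early repaired against mutant was −0.39 and F20 against mutant −0.072 for the locus mean, and −0.46 (first bin, early), −0.31 (second bin, early) and −0.20 (second bin, F20). This alternative is no different from the full comparison for F20 against early repaired. F20 against never mutant was 0.049 after rescaling to 1 table sum. It was 0.15 without backgrounds that had a library of high table total in either state. That left 2 differences, wild type and met-2 set-25, and dropped both set-32 alleles. Leaving out 1 background or state at a time, the locus mean ranged from −0.49 to 0.072 for early repaired against never mutant, from −0.29 to 0.023 for F20 against never mutant, from −0.050 to 0.21 for F20 against early repaired and from −0.32 to 0.11 for set-32 against wild type. The libraries behind these sign changes were set-32(ok1457) for the first 3 and the early repaired state for set-32. In the same way the second bin ranged from −0.05 to 0.38 for early repaired against mutant and from −0.041 to 0.22 for F20 against mutant. For set-32 against wild type the ranges were −0.40 to 0.16 (first bin) and −0.22 to 0.043 (second bin, 0.01 without F20), and for the set-32 by loss interaction −0.10 to 0.44 and −0.14 to 0.40. The cause was not tested. No paired analysis by replicate number was possible because each genotype had 1 library. With 4 differences the sign-flip tests of the locus mean could not go below 0.125, while the permutation of background labels within state, for set-32 against wild type, could reach 0.0123 and gave 0.642.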
